A study of Sus scrofa with 18 samples.

Results

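The insulin-like growth factor (IGF) axis was described in the fetal brain of the pig from counts of RNA sequencing reads. The 9 genes asked for were the ligands IGF1 and IGF2, the receptors IGF1R, IGF2R and INSR, and the binding proteins IGFBP2, IGFBP3, IGFBP4 and IGFBP5, each matched by its exact name in the gene table. Of these, 7 were named among the 31908 genes of the table, and all 7 passed the filter on low counts. IGF2 and IGFBP3 had no row of that name. The analysis used 18 whole-brain libraries of total RNA, 3 female and 3 male fetuses at each of GD45, GD60 and GD90, from Landrace × Large White gilts bred to boars of the line labelled LR-M6. No group carried a treatment. Each day was represented by 3 litter sizes, with 1 female and 1 male fetus for each, so up to 9 litters lie behind the 18 libraries, although the labels give the size of a litter and not its identity. Fetuses were named by their piglet number.

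IGF1 and IGF2 are secreted peptides that signal to growth and survival through IGF1R, a receptor tyrosine kinase, and IGF2 also signals through INSR, the insulin receptor. IGF2R, the cation-independent mannose 6-phosphate receptor, binds IGF2 and carries it to lysosomes. The binding proteins hold the ligands outside the cell and can lower or prolong their action. In the developing brain, IGFBP2 and IGFBP5 are known from neural progenitors and from neurons and their surroundings, while IGF1 acts on neurons and on the cells that form myelin.

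Levels are given as CPM, the read count of a gene relative to the total of its library, scaled between libraries by TMM factors. Library totals ranged from 15118843 to 19729783 counts, with a median of 16413097. Piglet 17, a GD45 male, stood apart, with the lowest TMM factor (0.849). Among the GD45 libraries it had the highest summed level of the radial glia, choroid plexus, liver, erythroid, microglia, and endothelium and pericyte marker lists. In the neuron, astrocyte, and meningeal and perivascular fibroblast lists it was the lowest. It also had the largest share of reads at the 3′ end of genes. That share was taken as the median percent of a gene's exon counts in its last exon, over 1896 genes with a single transcript, and was 65.5% in piglet 17 against 46.9% to 55.7% in the other GD45 libraries. It ranged from 42.6% to 56.8% at GD60 and from 40.4% to 55.7% at GD90. Because it differed within days as well, it is given beside results that it moved with. Whole brains were sequenced, so fewer cells of a type and less RNA per cell cannot be told apart.

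IGFBP2 and IGFBP5 lie next to each other on chromosome 15 of Sscrofa11.1, tail to tail and 6502 bases apart, IGFBP2 at chr15:118822047-118850976 on the plus strand and IGFBP5 at chr15:118857479-118878522 on the minus strand. They are the most abundant members. From GD45 to GD90 the level of IGFBP2 fell 4.2-fold. That of IGFBP5 rose 1.22-fold, a small change that was lost with some settings and in females alone, as given with the binding proteins. The 250 bases before each gene's start, which the rows of the deposited table set, are shown because the neighbours differ in them. Both are written 5′ to 3′ on the strand of the gene, and capitals mark the GC box core GGGCGG on either strand.
IGFBP2, chr15:118821797-118822046, plus strand: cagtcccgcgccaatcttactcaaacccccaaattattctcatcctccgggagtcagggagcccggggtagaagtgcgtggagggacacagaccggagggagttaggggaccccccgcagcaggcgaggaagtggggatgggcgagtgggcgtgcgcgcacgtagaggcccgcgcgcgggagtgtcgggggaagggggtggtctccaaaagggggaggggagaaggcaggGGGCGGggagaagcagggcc
IGFBP5, chr15:118878523-118878772, minus strand: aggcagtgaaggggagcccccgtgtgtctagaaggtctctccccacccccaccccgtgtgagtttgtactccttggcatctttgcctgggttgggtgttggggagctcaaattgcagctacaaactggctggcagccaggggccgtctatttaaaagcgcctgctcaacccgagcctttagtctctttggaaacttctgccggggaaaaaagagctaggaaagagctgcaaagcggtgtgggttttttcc
The IGFBP2 window held 1 GC box core and 67.6% G or C, and the IGFBP5 window held none and 55.2% G or C. Among 16033 windows of the same length before the tested genes, 54.2% held the core and the median content of G and C was 61.2%. The letters TATAAA, on either strand, were in neither window, and were in 7.36% of all windows. These matches describe the letters only.

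To set the members beside each other, levels were divided by gene length as well (FPKM). IGFBP2 had the highest FPKM in all 18 libraries, with a mean of 161.9 ± 120 (SD, n = 18), and IGFBP5 the second highest in all 18, with a mean of 25.8 ± 3.20. IGFBP4 and IGF2R took places 3 and 4, at 12.5 ± 2.69 and 9.55 ± 2.08 FPKM, and exchanged them between libraries. IGF1R and INSR followed at 3.27 ± 1.39 and 2.31 ± 0.989 FPKM and overlapped in the same way. IGF1 was last in every library, at 0.160 ± 0.0911 FPKM. The gap between IGFBP2 and IGFBP5 narrowed: the FPKM ratio of IGFBP2 to IGFBP5 had a median of 9.63 at GD45, 4.47 at GD60 and 2.38 at GD90, and the ratios of the 3 days did not overlap, the highest of GD90 being 3.53 and the lowest of GD60 3.56.

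**Figure D1:**
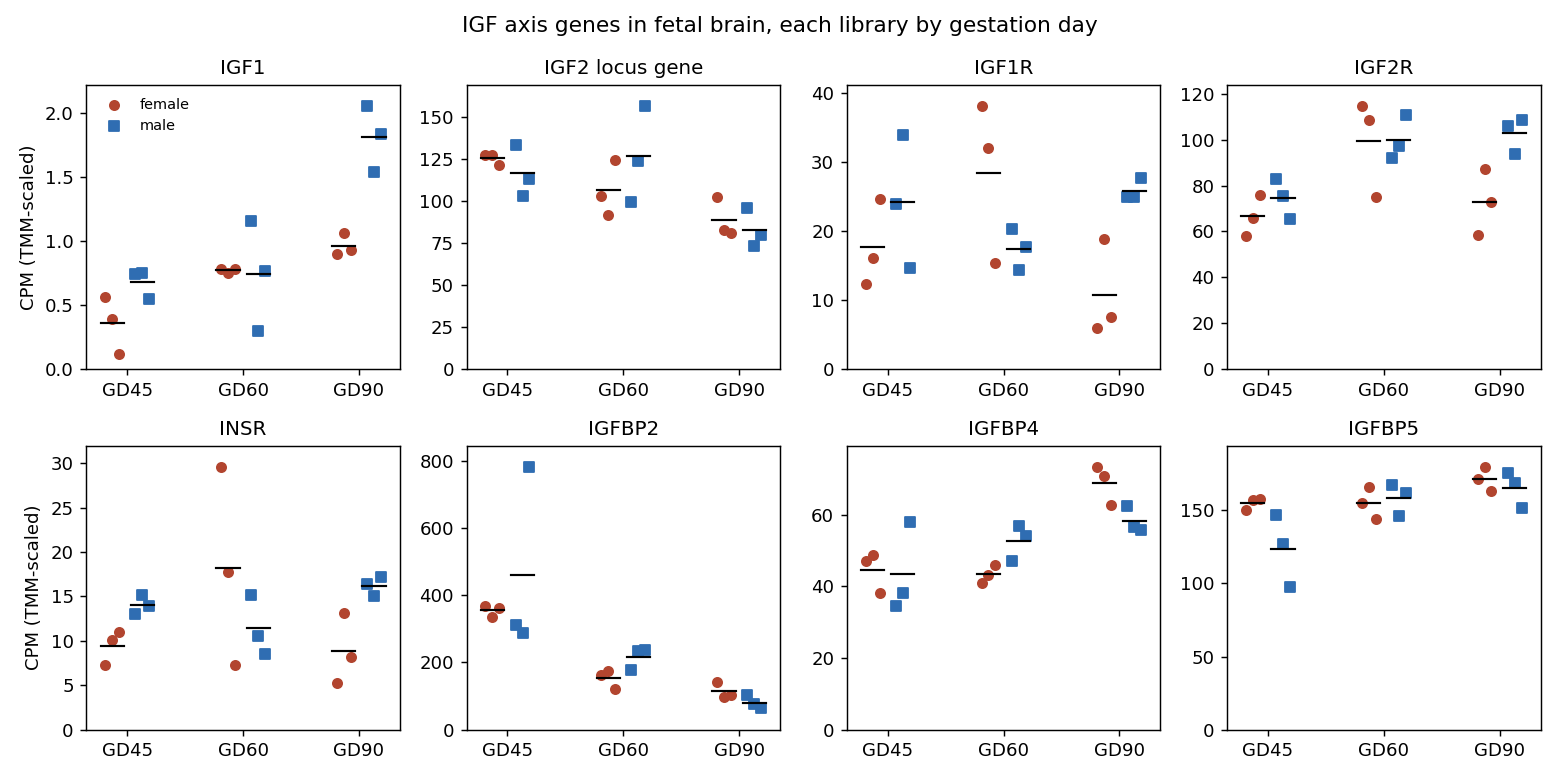
Level of each IGF axis gene, and of the unnamed gene at the IGF2 locus, in CPM on a linear axis, in the 18 libraries by gestation day. Circles are females, squares are males and bars are the means of 3 libraries. IGFBP2 falls from a median of 349 CPM at GD45 to 100 at GD90, with piglet 17 at 783, while IGF1 reaches at most 2.05 CPM.

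The first question was how the axis changes over gestation. Gene counts were compared between days over both sexes with edgeR's quasi-likelihood test and Benjamini-Hochberg adjustment over 16325 genes, and a gene was called differentially expressed (DE) at an adjusted p under 0.05. From GD45 to GD60, 2 of 7 members were DE, 1 higher and 1 lower, where 16.7% of all genes tested were DE. From GD60 to GD90 it was 3 of 7, 2 higher and 1 lower, where 42.4% of all genes were DE, and from GD45 to GD90 it was 5 of 7, 4 higher and 1 lower, where 57.5% were. The median log2 fold change over the 7 members was 0.18, -0.21 and 0.28 in these comparisons, beside -0.01, -0.01 and -0.03 over all genes. The 2 adjacent periods share the GD60 libraries, and so their values are given side by side and not related to each other. Within a sex, 1 of 7 members was DE from GD45 to GD60 in females and in males, where 7.22% and 5.61% of all genes were DE. From GD60 to GD90 it was 2 of 7 in each, where 27.1% and 34.5% were, and from GD45 to GD90 it was 3 and 5 of 7, where 38.8% and 47.8% were.

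Of the ligands, IGF1 was near the limit of detection. It ranged from 0.115 to 0.752 CPM at GD45 with a median of 0.552, which is 2 to 14 counts per library, from 0.299 to 1.15 CPM at GD60 with a median of 0.773, and from 0.898 to 2.05 CPM at GD90 with a median of 1.30, or 14 to 35 counts. All GD90 libraries were above all GD45 libraries, and GD60 overlapped both. IGF1 rose 2.64-fold from GD45 to GD90 (log2 1.40, SE 0.32, edgeR adjusted p = 0.00147). From GD60 to GD90 the change was 0.80 (SE 0.31) with an edgeR adjusted p of 0.0478, and this call was lost when any of 14 of the 18 libraries was left out, all but piglets 4, 12, 17 and 18, with edgeR adjusted p values up to 0.11. The change was 1.28 in males (edgeR adjusted p = 0.0303) and 0.31 in females, where the call was lost (edgeR adjusted p = 0.643), and the difference between the sexes had an edgeR adjusted p of 0.361. It was also lost with library size in place of TMM (0.76, edgeR adjusted p = 0.0651), without a filter (edgeR adjusted p = 0.0888), with litter sums (edgeR adjusted p = 0.0644), with the length trend removed (edgeR adjusted p = 0.0523) and with the last-exon covariate that is described with the receptors (edgeR adjusted p = 0.0642). From GD45 to GD60 the change of IGF1 was 0.60 (SE 0.33, edgeR adjusted p = 0.239). Microglia, a known source of IGF1, had 6 of 7 marker genes higher from GD60 to GD90, where 42.4% of all genes were DE, and summed marker levels of 75.2 to 125.9, 94.6 to 139.1 and 156 to 241.9 CPM at the 3 days, and no marker tested there was at 0. Their part in the rise of IGF1 was not tested.

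IGF2, the main fetal growth ligand, had no row by name. RefSeq places it at 1469183 to 1496417 on chromosome 2 of the same build, and 1 unnamed gene of the table (ENSSSCG00000035293, 1469132 to 1496442, minus strand) covers 100% of that span. It is given as the gene at the IGF2 locus and was not counted among the members. Its level was 102.8 to 133.3 CPM at GD45 with a median of 124.4, 91.5 to 156.5 CPM at GD60 with a median of 113.2, and 73.0 to 102.2 CPM at GD90 with a median of 82.0. Every GD90 library was below every GD45 library, and those of GD60 overlapped both. The level fell by 0.43 on the log2 scale from GD60 to GD90 (SE 0.12, edgeR adjusted p = 0.00733) and by 0.49 from GD45 to GD90 (SE 0.12, edgeR adjusted p = 0.00197), while GD60 against GD45 gave -0.06 (SE 0.12, edgeR adjusted p = 0.779). The change from GD60 to GD90 was -0.61 in males (edgeR adjusted p = 0.0109) and -0.26 in females, where it was not DE (edgeR adjusted p = 0.271), and the difference between the sexes had an edgeR adjusted p of 0.384. Choroid plexus, a known site of IGF2 expression in the brain, had 4 of 8 markers lower from GD60 to GD90 and none higher, where 42.4% of all genes were DE. The summed level of the list was 685 to 1222 CPM at GD60 and 429.5 to 990.2 CPM at GD90, with no marker at 0. Markers of meningeal and perivascular fibroblasts were split, 2 higher and 2 lower of 8. The part of either cell type was not tested. No row of the table overlapped the RefSeq position of IGFBP3, the main carrier of IGFs in blood (chromosome 18, 50002921 to 50009425), so IGFBP3 was not analysed here.

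Of the receptors, IGF2R rose from GD45 to GD60. It ranged from 58.1 to 82.9 CPM at GD45 (median 70.7), from 74.9 to 114.8 CPM at GD60 (median 103) and from 58.7 to 108.5 CPM at GD90 (median 90.5). All GD60 libraries but piglet 15 were above every GD45 library, and GD90 spanned both. The rise to GD60 was 1.41-fold (log2 0.50, SE 0.12, edgeR adjusted p = 0.00884). In either sex alone this rise did not pass, with 0.58 in females (edgeR adjusted p = 0.0514) and 0.42 in males (edgeR adjusted p = 0.189). IGF2R was 1.23-fold higher at GD90 than at GD45 (edgeR adjusted p = 0.0469), and that call was lost when any of 13 libraries was left out, all but piglets 2, 3, 11, 15 and 18. It was lost, too, with library size in place of TMM (0.26, edgeR adjusted p = 0.136), without a filter (edgeR adjusted p = 0.0786), with the length trend removed (0.19, edgeR adjusted p = 0.121), and in females alone (0.13, edgeR adjusted p = 0.592), while in males it was 0.46 (edgeR adjusted p = 0.0354). From GD60 to GD90 IGF2R changed by -0.21 (SE 0.12, edgeR adjusted p = 0.187).

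IGF1R, the receptor that carries the growth signal, was not DE between days over both sexes, but was in females alone. Its level was 12.3 to 34.01 CPM at GD45 (median 20.0), 14.4 to 38.2 CPM at GD60 (median 18.98) and 5.99 to 27.7 CPM at GD90 (median 21.9). INSR ranged from 7.29 to 15.2 CPM (median 12), from 7.31 to 29.6 CPM (median 12.8) and from 5.27 to 17.2 CPM (median 14.1). The 3 days overlapped for both receptors, and their spread within a day was wide. The log2 changes of IGF1R were 0.11 from GD45 to GD60 (95% interval -0.49 to 0.71) and -0.42 from GD60 to GD90 (-1.02 to 0.18). Those of INSR were 0.32 (-0.24 to 0.89) and -0.27 (-0.84 to 0.30). In females alone IGF1R fell by 1.41 from GD60 to GD90 (SE 0.41, edgeR adjusted p = 0.0173), and in males it changed by 0.57 (SE 0.40, edgeR adjusted p = 0.287).

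The receptors moved with the share of reads at the 3′ end, as a plot of their levels against it shows. As deviations from the means of the 6 groups, log2 CPM and the share had Pearson r of -0.87 for IGF1R, -0.773 for IGF2R and -0.664 for INSR. The relation was not particular to the receptors. For IGFBP5 the r was -0.715 and for IGF1 -0.098, while IGFBP4 (0.685) and IGFBP2 (0.582) rose with the share. At GD90 the 3 males had last-exon shares of 40.4%, 41.1% and 42.3% and IGF1R at 27.7, 25.0 and 24.9 CPM, whereas the females had 44.3%, 52.1% and 55.7% and IGF1R at 18.8, 7.47 and 5.99 CPM. At GD60 the female with the lowest share, piglet 3 (42.6%), had the highest IGF1R, INSR and IGF2R, and piglet 15, with the highest (56.8%), had the lowest INSR and IGF2R. A fit with the last-exon share of each library as a covariate was added after the data were seen. In it IGF1R fell by 0.75 from GD60 to GD90 (edgeR adjusted p = 0.000549) and by 0.94 from GD45 to GD90 (edgeR adjusted p = 0.00015), and IGF2R fell by 0.31 from GD60 to GD90 (edgeR adjusted p = 0.00612). The rise of IGF2R to GD60 was 0.39 there (edgeR adjusted p = 0.00314), and its difference between GD90 and GD45 was 0.08 (edgeR adjusted p = 0.52). INSR passed the threshold in neither adjacent period of that fit, with edgeR adjusted p of 0.938 and 0.0831.

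**Figure D2:**
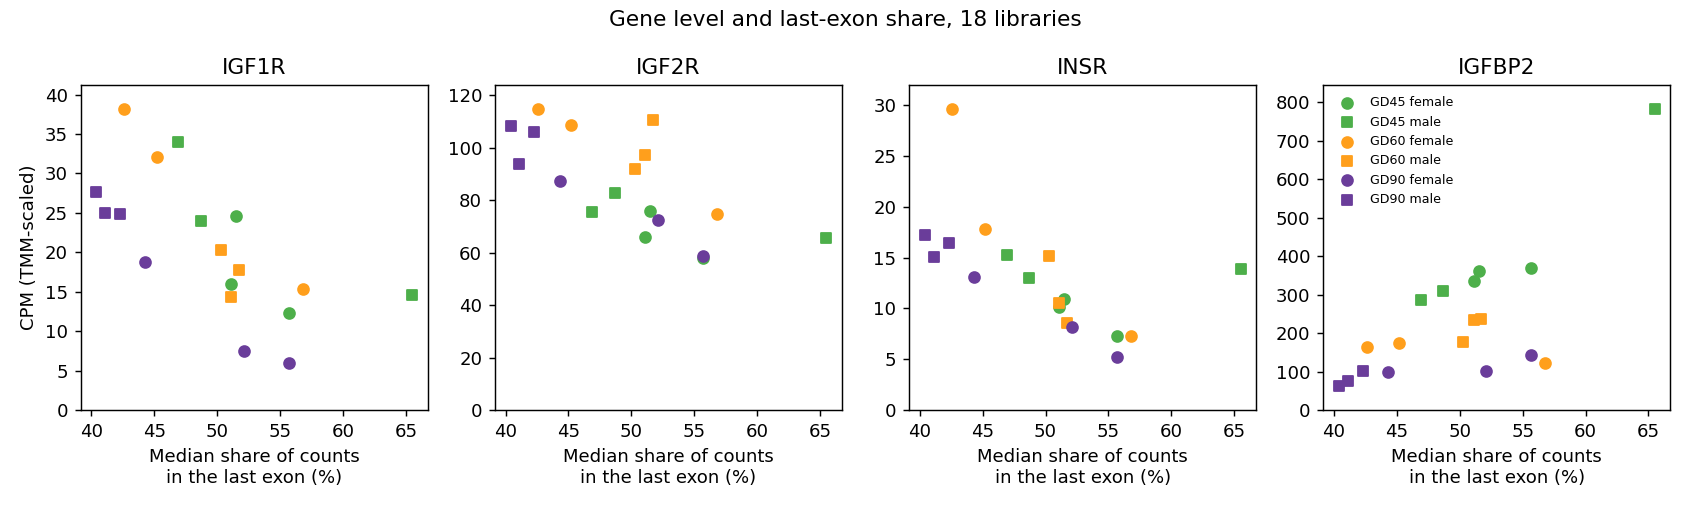
Level of IGF1R, IGF2R, INSR and IGFBP2 in CPM against the median share of counts in the last exon, in percent, for the 18 libraries, with colours for gestation days, circles for females and squares for males. Within GD90 the receptors are lower in the libraries with larger shares, from 27.7 CPM of IGF1R at 40.4% to 5.99 at 55.7%.

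The exon counts of IGF2R show this within 1 gene. Its last exon, 1789 bases long and the exon with the highest mean count, was compared with the sum of its other exons, both in CPM of the exon table. The last exon had medians of 74.8 CPM at GD45, 80.5 at GD60 and 54.0 at GD90, and the other exons had 48.4, 75.2 and 75.3. Piglet 17 had the highest last-exon level of all (119 CPM) and the second lowest in the other exons of its day (36.5 CPM). Of the 49 exons of IGF2R, 33 passed the filter, and none was DE in either adjacent period by edgeR, where 2% and 12.6% of all exons tested were DE in the first and the second period. From GD45 to GD60 their log2 changes ran from 0.02, that of the last exon, to 1.96, with a median of 0.76. Of the exons tested for IGF1R (9 of 26), INSR (7 of 23), IGFBP4 and IGFBP5 (5 of 5 each), none was DE in an adjacent period either, and no exon of IGF1 passed the filter.

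**Figure D3:**
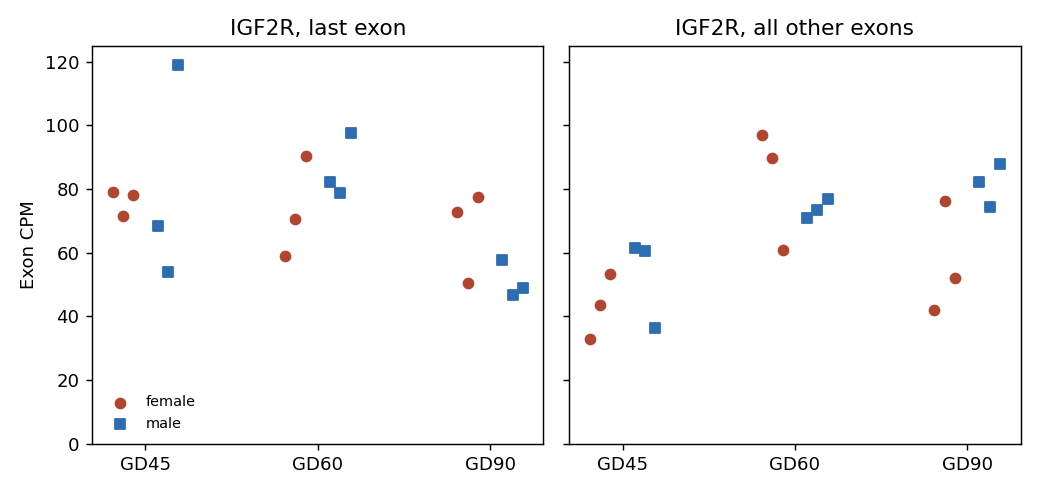
IGF2R counts relative to the library's exon total (CPM) in the last exon and in all other exons together, for each library by gestation day. Circles are females and squares are males. From GD45 to GD60 the other exons rise from a median of 48.4 to 75.2 CPM, and the last exon goes from 74.8 to 80.5 CPM.

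Of the binding proteins, IGFBP2 fell in both periods over both sexes, the second fall being DE in males alone and not in females alone. It ranged from 287 to 783 CPM at GD45 with a median of 349, from 121.5 to 235.9 CPM at GD60 with a median of 176, and from 63.8 to 143.4 CPM at GD90 with a median of 100. All GD60 libraries were below all GD45 libraries, and GD60 and GD90 overlapped through piglets 15 and 2. IGFBP2 fell 2.22-fold from GD45 to GD60 (log2 -1.15, SE 0.21, edgeR adjusted p = 0.00122), 1.89-fold from GD60 to GD90 (log2 -0.92, SE 0.21, edgeR adjusted p = 0.00237) and 4.2-fold over the whole period (log2 -2.07, SE 0.22, edgeR adjusted p = 5.3e-07). The change from GD60 to GD90 was -1.42 in males (edgeR adjusted p = 0.0022) and -0.42 in females (edgeR adjusted p = 0.325), and their difference did not pass, as given with the sexes. Without piglet 17 the change to GD60 was -0.86 (edgeR adjusted p = 0.000245), and with the last-exon share as a covariate it was -0.90 (edgeR adjusted p = 0.000759). All 4 exons of IGFBP2 were DE and lower from GD45 to GD60, with log2 changes from -1.46 to -1.20, and 3 of 4 from GD60 to GD90. By the ratio of the highest to the lowest CPM, IGFBP2 (12.3) varied most after IGF1 (17.9). By the coefficient of variation over the 18 libraries, IGFBP2 (74.1%) varied more than IGF1 (56.8%).

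The fall of IGFBP2 went with that of the radial glia and neural progenitor list. Of its 6 tested genes, 4 were lower from GD45 to GD60, 4 from GD60 to GD90 and all 6 from GD45 to GD90 by edgeR, among them VIM and NES, which encode intermediate filaments of progenitors, and PAX6, a transcription factor of cortical progenitors. In these comparisons 16.7%, 42.4% and 57.5% of all genes were DE in either direction. The summed level of the list was 1732 to 3360 CPM at GD45, 1299 to 1843 at GD60 and 962.3 to 1382 at GD90, no gene of it was at 0, and piglet 17 was highest in it as in IGFBP2. At GD60 piglet 15 was highest in the list but lowest in IGFBP2, and at GD90 piglet 2 was highest in both. The summed choroid plexus list fell as well, with medians of 1293, 960.3 and 611.2 CPM at the 3 days, and piglet 17 was its highest library at GD45. So did the summed erythroid list, with medians of 340.6, 203 and 165.6 CPM, and piglet 17 was again highest at GD45 (791.4 CPM). The part of these cell types in the fall of IGFBP2 was not tested. Over the 18 libraries, the genes nearest to IGFBP2 in log2 CPM among 12803 candidates were TK1, a thymidine kinase of dividing cells, HIRIP3 and MDFI, with Pearson r of 0.986, 0.985 and 0.983. These coefficients describe libraries that share gestation days and coverage.

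IGFBP4 and IGFBP5 were higher at GD90 than at GD45. IGFBP4 ranged from 34.4 to 57.9 CPM at GD45 (median 42.6), from 41.0 to 56.8 CPM at GD60 (median 46.6) and from 55.8 to 73.4 CPM at GD90 (median 62.5). Only piglet 17 at GD45 and piglet 6 at GD60 reached into the range of GD90. IGFBP4 rose 1.33-fold from GD60 to GD90 (log2 0.41, SE 0.12, edgeR adjusted p = 0.00887) and 1.44-fold from GD45 to GD90 (log2 0.53, SE 0.12, edgeR adjusted p = 0.000918), and did not pass from GD45 to GD60 (0.12, SE 0.12, edgeR adjusted p = 0.53). The rise from GD60 to GD90 was 0.67 in females (edgeR adjusted p = 0.0057) and 0.15 in males, where it was not DE (edgeR adjusted p = 0.507), and the difference was -0.52 (SE 0.23, edgeR adjusted p = 0.236). IGFBP5 ranged from 97.8 to 157.6 CPM at GD45 (median 148), from 144.1 to 167.4 CPM at GD60 (median 159) and from 151.7 to 179.8 CPM at GD90 (median 170). The days overlapped for IGFBP5, which was the steadiest member with a coefficient of variation of 12.4% over the 18 libraries.

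IGFBP5 was 1.22-fold higher at GD90 than at GD45 (log2 0.28, SE 0.09, edgeR adjusted p = 0.0128). This did not pass with library size in place of TMM (0.24, edgeR adjusted p = 0.0907), nor with the last-exon share as a covariate (0.16, edgeR adjusted p = 0.095). It was not DE in females alone (0.15, edgeR adjusted p = 0.38) and was in males alone (0.41, edgeR adjusted p = 0.0128), and this difference between the sexes was not tested. Its adjacent periods gave 0.18 and 0.10, with edgeR adjusted p of 0.191 and 0.375. With the covariate the rise of IGFBP4 was 0.49 from GD60 to GD90 and 0.71 from GD45 to GD90. Of the markers of other cells, 7 of 7 for astrocytes, 7 of 7 for oligodendrocytes, 6 of 8 for neurons and 4 of 8 for endothelium and pericytes were higher from GD60 to GD90, and their part in the rise of IGFBP4 was not tested. Of 6 erythroid markers, 3 were lower in the first period and 2 in the second. All these marker counts stand beside 16.7% of all genes DE in the first period and 42.4% in the second. Of the markers of tissues near the brain, 1 of 5 for muscle, bone and skin was higher in the first period, and 1 was higher and 1 lower in the second. For liver 1 of 4 rose in the second period, and no pituitary marker was DE by edgeR in either, although piglet 15 at GD60 had a summed pituitary level of 64.7 CPM.

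**Figure D4:**
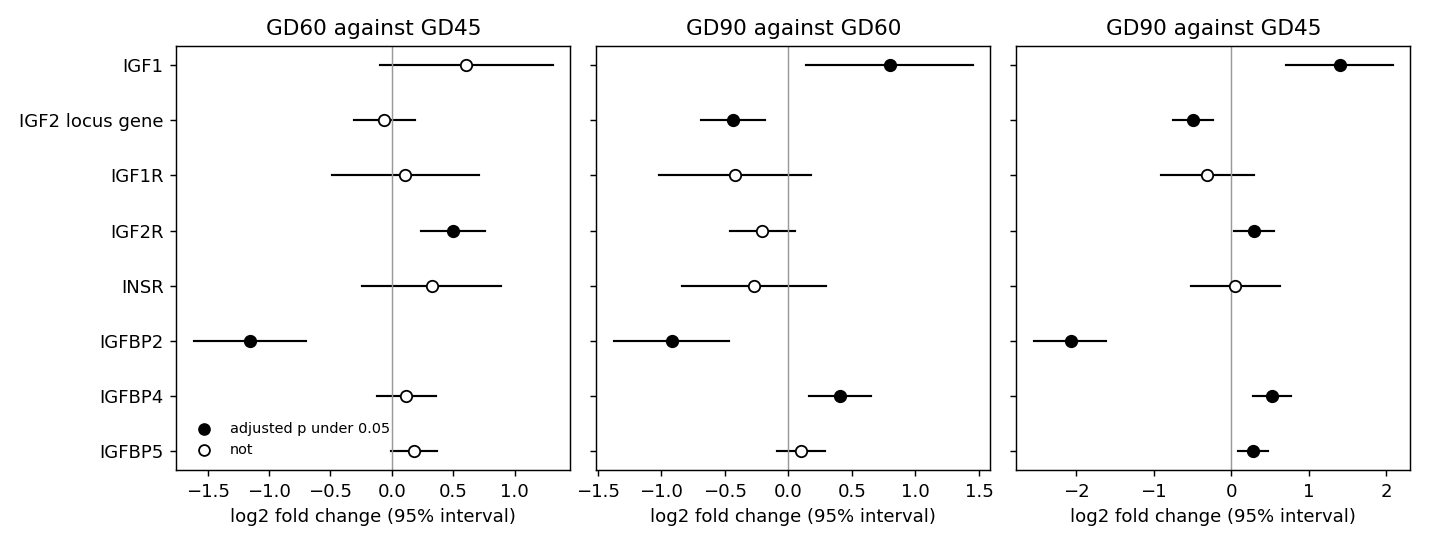
Log2 fold change of each IGF axis gene and of the gene at the IGF2 locus between days over both sexes, from edgeR, with the 95% interval as a bar. Filled points have an adjusted p under 0.05. IGFBP2 lies to the left of 0 in the 3 comparisons, at -1.15, -0.92 and -2.07.

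Genes whose log2 CPM was most like that of the other members over the 18 libraries, by Pearson r, were SLC4A8 (0.947), KLF12 (0.939) and SRRM4 (0.937) for IGF1R, CDC42BPB (0.953), NDST1 (0.939) and KDM4B (0.933) for IGF2R, and MTF1 (0.908), SLC4A8 (0.905) and CHD2 (0.902) for INSR. They were MBOAT7 (0.955), VAPB (0.953) and RTN4R (0.952) for IGFBP4, ZNF804A (0.879), RAB12 (0.872) and LASP1 (0.868) for IGFBP5, and FAM133A (0.853) and CUX1 (0.833) for IGF1. The gene at the IGF2 locus was nearest to OSR1 (0.935), SERPING1 (0.898) and CRABP2 (0.897).

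Other genes of the pathway were taken from a list of 44, of which 40 were in the table and 38 were tested. IGFBP1 was in the table at 0 in every library. From GD45 to GD60, 8 were higher and 4 lower by edgeR, and from GD60 to GD90, 9 were higher and 7 lower, beside the 16.7% and 42.4% of all genes. The 3 proteins that bind IGF2 mRNA fell in both periods. IGF2BP1 had mean levels of 3.88, 1.22 and 0.112 CPM at the 3 days, with changes of -1.66 (SE 0.38) and -3.46 (SE 0.56). IGF2BP2 went from 79.1 to 46.9 and 16.5 CPM and IGF2BP3 from 16.3 to 11.8 and 5.82 CPM.

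STC2, which encodes stanniocalcin 2, an inhibitor of the protease PAPPA that cuts IGFBP4, rose in both periods, from 2.12 to 9.39 and 21.2 CPM, by 2.13 (SE 0.18, edgeR adjusted p = 1.99e-06) and 1.17 (SE 0.16, edgeR adjusted p = 2.19e-05). The adaptor GRB14 and the transcription factor FOXO1, both downstream of the receptors, rose by 0.47 and 0.42 to GD60. From GD60 to GD90, PIK3R1, a regulatory subunit of PI3 kinase, rose by 0.85 (SE 0.09) and IGFBP7, a related secreted binding protein, by 0.74 (SE 0.12).

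The series was made to compare the sexes, and no member was DE between males and females by edgeR. The mean difference over days was DE for 0 of 7 members by edgeR and by DESeq2. By edgeR, 0.116% of all genes were DE. An unadjusted edgeR p under 0.05 was found for 2 members and for 3.41% of all genes. Within GD45, GD60 and GD90 the sex difference was DE for 0 of 7 members each by both tools. There 0.0919%, 0.098% and 0.098% of all genes were DE by edgeR. Under an unadjusted 0.05 were 1, 0 and 4 members, and 2.59%, 4.8% and 13.6% of all genes. At GD90, the 4 were IGF1, IGF1R, IGF2R and INSR, and in each all 3 males were above all 3 females. IGFBP4 went the other way there, with 55.8 to 62.3 CPM in males and 62.7 to 73.4 CPM in females (edgeR adjusted p = 0.447). The share of all genes whose males and females separate in this way was not computed.

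At GD90, IGF1R was 25.0, 27.7 and 24.9 CPM in males 8, 10 and 1 and 5.99, 18.8 and 7.47 CPM in females 2, 7 and 9, a difference of 1.27 on the log2 scale (SE 0.41, edgeR adjusted p = 0.35). INSR was 15.0, 17.2 and 16.4 CPM in those males and 5.27, 13.1 and 8.13 CPM in those females (0.88, SE 0.39, edgeR adjusted p = 0.354). IGF2R was 93.8, 108.5 and 106.1 CPM in males and 58.7, 87.2 and 72.7 CPM in females (0.50, SE 0.17, edgeR adjusted p = 0.35). IGF1 was 1.54, 1.84 and 2.05 CPM in males and 0.898, 1.06 and 0.926 CPM in females (0.91, SE 0.42, edgeR adjusted p = 0.365). The males did not overlap the females in the last-exon share either, and with that share as a covariate the differences were 0.59 for IGF1R, 0.39 for INSR, 0.24 for IGF2R and 0.82 for IGF1, with edgeR adjusted p values from 0.902 to 0.951. At GD90 13.6% of all genes had an unadjusted p under 0.05 between the sexes.

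The change with gestation was also compared between the sexes. From GD45 to GD60 the sex difference in the change was DE for 0 of 7 members by edgeR and by DESeq2. By edgeR, 0% of all genes were DE. An unadjusted edgeR p under 0.05 was found for 1 member and for 2.04% of all genes. From GD60 to GD90 the sex difference in the change was DE for 0 of 7 by edgeR, where 0% of all genes were DE. Under an unadjusted 0.05 were 4 members and 19.8% of all genes. IGF1R changed by -1.41 in females, which was DE, and by 0.57 in males, which was not, a difference of 1.97 (SE 0.58, edgeR adjusted p = 0.183). That difference was DE by DESeq2 (adjusted p = 0.0404, 1 of 7 members and 277 genes in all), and in the edgeR fit without piglet 17, which has no part in these 2 days except through the shared spread (adjusted p = 0.0284). With the last-exon share as a covariate it was 0.96 (edgeR adjusted p = 0.486).

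Without piglet 17, IGFBP2 (-1.001, edgeR adjusted p = 0.025) and IGFBP4 (-0.53, edgeR adjusted p = 0.0357) also had a DE sex difference in the change from GD60 to GD90, among 2205 genes in all. In the fit of all libraries IGFBP2 changed by -0.42 in females and -1.42 in males over that period, and the difference was -0.997 (SE 0.43, edgeR adjusted p = 0.232). The covariate gave -0.38 for IGFBP2 (edgeR adjusted p = 0.855) and -0.24 for IGFBP4 (edgeR adjusted p = 0.815). Of the days, IGFBP2 at GD60 was 163.5, 175.1 and 121.5 CPM in females 3, 5 and 15 and 177.6, 233.8 and 235.9 CPM in males 4, 6 and 16, and at GD90 it was 143.4, 98.2 and 102.3 CPM in females 2, 7 and 9 and 102, 76.5 and 63.8 CPM in males 1, 8 and 10. Males were above females at GD60, and at GD90 they overlapped.

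The members were then set against the labelled brain weight of the fetuses within a day. The labels give the weight in mg, and the results use it only relative to other brains of the same day, so they do not depend on the unit. The weights spanned 2.8 times at GD45 (0.665 to 1.86), 1.35 times at GD60 and 1.17 times at GD90. At GD45 the 2 brains of the litter of 8, piglets 17 and 18, weighed 0.714 and 0.665 and the other brains weighed 1.55 or more. No member was DE with brain weight, 0 of 7 for a slope shared by the days, and 0 of 7 within GD45, GD60 and GD90 each, by edgeR and by DESeq2. The shares of all genes that were DE were 0%, 0.0184%, 0% and 0%. An unadjusted edgeR p under 0.05 was found for 1, 1, 0 and 0 members, and for 3.82%, 15.9%, 3.98% and 3.77% of all genes.

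IGFBP2 was the member behind both counts. At GD45 it was 783 and 362.5 CPM in the light brains of piglets 17 and 18, and 369.3, 287, 311 and 335.8 CPM in piglets 12, 14, 11 and 13 in order of weight, piglets 12 and 14 being equal. At GD90 it was 102, 143.4, 98.2, 76.5, 102.3 and 63.8 CPM from the lightest brain to the heaviest. The shared slope of IGFBP2 was -0.21 on the log2 scale per SD of brain weight within a day (SE 0.08, edgeR adjusted p = 0.976), and that within GD45 was -0.37 (SE 0.13, edgeR adjusted p = 0.24). The shared slope turned to 0.20 with the litter as a block (edgeR adjusted p = 1), in which only littermates are compared. It was -0.10 without the GD45 litter of 8, -0.10 without piglet 17 and -0.55 per log2 unit of brain weight, none of them DE. With the last-exon share as a covariate the shared slope was -0.15 (edgeR adjusted p = 0.822) and that within GD45 was -0.24 (edgeR adjusted p = 0.414).

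Within GD45 the slope of IGFBP2 rested on piglet 17, and the number of DE members on piglet 18. Without piglet 17 the slope of IGFBP2 within GD45 was -0.03. Without piglet 18, piglet 17 was the only light brain, and 3 of 7 members were DE with weight, IGFBP2 (-0.60), IGFBP4 (-0.29) and IGFBP5 (0.23), among 4541 genes in all. Piglet 17 had the highest last-exon share and the lowest TMM factor of the 18 libraries, and the part of these traits in the slopes was not tested. For the other members the shared slope was 0.10 for IGF1 (95% interval -0.21 to 0.41), -0.01 for IGF1R (-0.30 to 0.27), 0.02 for IGF2R (-0.10 to 0.13), -0.06 for INSR (-0.33 to 0.21), -0.05 for IGFBP4 (-0.16 to 0.06) and 0.01 for IGFBP5 (-0.08 to 0.10). Of 9 pairs of littermates, the heavier brain had the higher level in 7 for INSR, 6 for IGF1R and for IGF2R, 5 for IGF1, 4 for IGFBP2 and IGFBP4 and 3 for IGFBP5. In each pair the littermates also differ in sex.

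**Figure D5:**
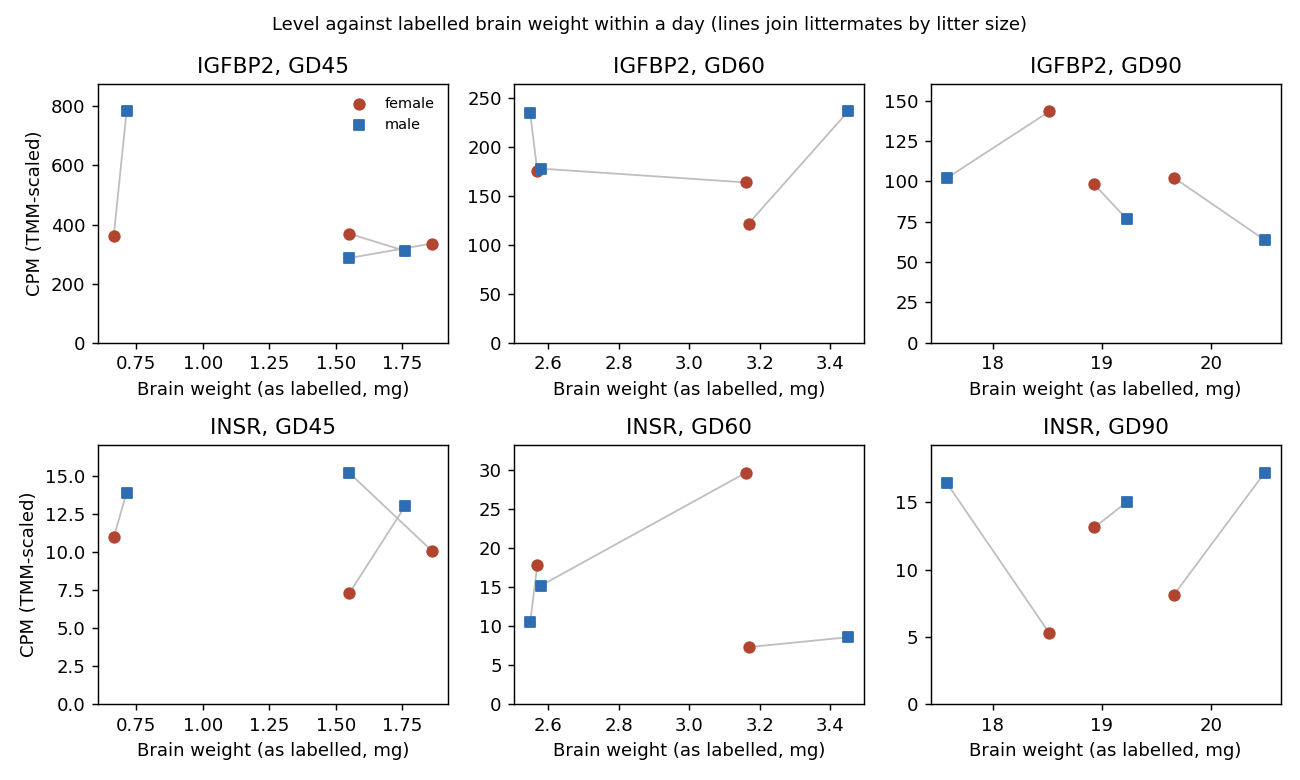
Level of IGFBP2 and INSR in CPM against the labelled brain weight within each gestation day. Circles are females, squares are males and lines join the 2 fetuses of a litter size, with axes that differ between panels. At GD45 piglet 17, one of the 2 light brains, has 783 CPM of IGFBP2 and its littermate 362.5.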

How the data were processed

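The authors trimmed the paired reads of whole fetal brain RNA with Trimmomatic, aligned them to Sscrofa11.1 with HISAT2 and counted them per gene and per exon with featureCounts on the Ensembl annotation. They deposited raw read counts without normalization. The options for strand, multiple matches and overlaps are not given in the sources used here. The 22 columns were assigned to 18 libraries, and the 2 runs of 4 libraries were summed: chi-square over degrees of freedom was 1.61 to 1.67 between runs and 6.71 or more between libraries of a group. Genes were kept by filterByExpr (16325 of 31908, with 99.93% of counts; 80134 exons), scaled by TMM and fitted in edgeR 4.0.16 (R 4.3.3) with 6 groups of sex and gestation day over all 18 libraries. Brain weight entered as an SD within the day. Log2 CPM used a prior count of 2, and FPKM was computed from the deposited gene length. Alternatives were DESeq2 1.42.0, library size without TMM, no filter, each library left out, litter sums, the litter as a block, either sex alone, a length trend, only the libraries compared, other forms of weight, and, added after the data were seen, the last-exon share as a covariate. The tests were tested on simulated data: of 50 genes changed 2-fold among 16325, 41 were recovered for GD60 against GD45, 47 for males against females over the mean of days and 50 for a 2-fold change per SD of brain weight. Of 50 genes changed 1.5-fold, 18, 27 and 46 were recovered. The simulation held no effect of litter or of last-exon share, and changed no gene with counts as low as IGF1. It did not cover the tests of sex or brain weight within a day. Samples were grouped by the labels, and nothing says how the fetuses of a day were assigned to sequencing runs. The members, the pathway list and the marker lists (choroid plexus, meninges, endothelium, microglia, radial glia, oligodendrocytes, astrocytes, neurons, muscle, bone and skin, liver, pituitary, erythroid cells) were chosen with earlier results of these data known. The named genes are all members, up to 3 pathway genes that rose and 3 that fell most in each adjacent period with a mean of at least 1 CPM, and the 3 genes nearest to each member, except for items that are not reported here. Promoter windows were read from the RefSeq assembly of the same build, and IGF2 and IGFBP3 were placed by RefSeq coordinates.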

Additional observations from a re-analysis of the deposited data

Results flagged for a closer look

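IGFBP2 in piglet 17, a GD45 male, was 783 CPM, far from the other GD45 libraries, of which the next highest was 369.3 CPM. The gap was 0.834 of the range of the 6 libraries, beyond Dixon's 95% critical value. It was the 1 value past that limit among the 24 sets of 6 libraries examined, and chance alone would put about 5% of sets past it. The same library had the lowest TMM factor (0.849), the highest last-exon share (65.5%) and the highest summed level of radial glia markers (3360 CPM). Their part in the value was not tested.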

How the results depend on the processing

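The numbers of members or member exons that were DE stayed within 1.5 times of the reported ones in 342 of 352 refits. Numbers that stayed at 0 are among these, and so are changes such as 5 to 4, so the total says little about single calls. For genes taken 1 by 1, the direction and the call both stayed in 920 of 996 refits. With library size in place of TMM, 3 of 7 were DE from GD45 to GD90 and 5 member exons from GD60 to GD90, instead of 5 members and 3 exons. In females alone 1 was DE from GD45 to GD60 and 3 from GD45 to GD90, and in males alone 1 from GD45 to GD60. DESeq2 called 1 sex difference in the change from GD60 to GD90. With each library left out, the number of DE members was 0 to 3 for that sex difference (3 without piglet 17) and 0 to 3 for brain weight within GD45 (3 without piglet 18), and DE member exons were 4 to 7 from GD45 to GD60 (7 without piglet 15) and 2 to 5 from GD60 to GD90 (5 without piglet 17). Directions turned for values that were not DE. In females alone IGFBP4 from GD45 to GD60 was -0.04 and INSR from GD45 to GD90 was -0.10. In males alone IGF1R was -0.47, INSR -0.30 and the gene at the IGF2 locus 0.12 from GD45 to GD60, IGF2R was 0.04, IGF1R 0.57 and INSR 0.50 from GD60 to GD90, and IGF1R was 0.09 from GD45 to GD90. INSR from GD45 to GD90 was -0.02 with the length trend removed and -0.42 with the last-exon covariate, with which IGF1R from GD45 to GD60 was -0.20. The IGFBP2 slope on brain weight was 0.20 with the litter as a replicate block, which changed no call. With libraries left out, IGF1R from GD45 to GD60 was -0.03 to 0.27, the gene at the IGF2 locus -0.15 to 0.01, and INSR from GD45 to GD90 -0.15 to 0.18. The cause of these changes was not tested. IGF1 had 2 to 35 counts per library, and the part of depth in its lost call from GD60 to GD90 was not tested.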
